A study of Canis lupus familiaris with 22 samples.

Results

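In the dogs used to choose them, the 150 genes described here were far higher in retina than in the tissue behind it. None differed between macula and periphery in the same direction in every dog by more than a small margin. They were chosen from 30951 gene identifiers by a rule that used 16 libraries of 4 dogs. A gene needed a mean of at least 5 CPM (the count scaled to the library's total) over the 8 retina libraries. It was dropped when all 4 dogs had a log2 difference between macula and periphery of at least 0.2 in one direction, in retina or in RPE/choroid. Of the 9770 genes left, the 150 with the largest ratio of retina to RPE/choroid were taken. The gene in the 150th place had a 29.6-fold ratio (33.7 against 0.654 CPM, with 0.5 CPM added to both), and the next gene, left out, had a 29.6-fold ratio too (27.0 against 0.431 CPM). Another 144 genes passed the same ratio and were dropped for their regional difference.

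The retina is the neural sheet at the back of the eye. Its outermost layer holds the photoreceptors, rods and cones, whose light-sensing outer segments reach into the microvilli of the retinal pigment epithelium (RPE). Bipolar, horizontal and amacrine cells and the ganglion cells, whose axons form the optic nerve, lie farther in, and Müller glia span the layers. The RPE takes part in the renewal of photoreceptor outer segments and visual pigment, and behind it lies the choroid, a layer of blood vessels. Genes restricted to the retina are known to encode parts of the phototransduction cascade, of photoreceptor cilia, of ribbon synapses and of neurotransmitter signalling. The deposited files name genes only by Ensembl identifier, and 0 of these matched an entry of the RefSeq gene table used here (assembly UU_Cfam_GSD_1.0). Which of these functions the 150 genes serve was therefore not analysed, the labelled tissues could not be checked against named markers, and no sequence is shown. At most 4 identifiers are given, each picked by rule.

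The series held 22 RNA-seq libraries of 7 mixed-breed dogs. The retina and the RPE/choroid of 1 eye each, both sampled in the macula and in the periphery, came from dogs 18-2 (male pitbull mix, 2 to 3 years old by estimate, left eye), 18-6 (male mastiff mix, 3 to 5 years, left eye), 18-7 (female pitbull mix, 3 to 5 years, right eye) and 18-9 (female boxer mix, 2 to 3 years, right eye). Dogs 1 (female labrador and pitbull mix, 3 to 5 years), 2 (male pitbull mix, 2 to 3 years) and 3 (male pitbull mix, 3 to 4 years) gave macular RPE/choroid alone, from the right eye with the retina on at sampling and from the left eye with the retina taken off beforehand. Side of the eye and retina on or off therefore cannot be told apart. No treatment or genotype is given in the labels. Total counts ran from 2690847 to 7845325 per library. The most abundant gene of a retina library reached only 933 to 1054 CPM, so levels at the top of the range lay close together. This was not limited to retina. The most abundant gene of an RPE/choroid library reached 986 to 1430 CPM in the first 4 dogs and 966 to 1527 CPM in dogs 1 to 3.

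In the retina the 150 genes were steady as a sum, though not each by itself. Their summed level was 18061 ± 550 CPM in the 4 macular libraries and 18445 ± 628 CPM in the 4 peripheral ones (mean and SD), and the 8 libraries ran from 17333 to 19348 CPM. Each of the 150 genes had counts in each of these 8 libraries. Mean levels of single genes ran from 17.4 to 825 CPM, with a median of 81.6 CPM. The coefficient of variation of a gene over the 8 libraries had a median of 13.3% and quartiles of 9.41% and 19.4%, and the most variable gene reached 74.9%. The 10 highest genes held 26.9% of the summed level. Because the rule took evenness between regions as a condition, the following differences describe the choice and were not tested. Macula minus periphery in retina had a median log2 difference of 0.05 in dog 18-2, -0.02 in dog 18-6, -0.00191 in dog 18-7 and -0.02 in dog 18-9. Averaged over the dogs, single genes still ran from -0.81 to 0.72, since a gene was kept as soon as 1 dog fell short of the limit.

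In the RPE/choroid of these dogs, the same genes summed to 229 ± 86.1 CPM in macular samples, and to 270.3 ± 99.2 CPM in peripheral samples (SD over 4 dogs), again as the rule required. The mean level of a gene had a median of 0.680 CPM, 88 of the 150 were under 1 CPM, and 2 had no count in any of the 8 libraries. Between dogs the regional difference went both ways. In dog 18-2 the macular sample was higher, with 343 beside 200.1 CPM, whereas in dog 18-7 it was lower, with 217 beside 409 CPM. Dogs 18-6 (222 and 276 CPM) and 18-9 (134 and 197 CPM) also had the lower value in the macula. In bulk tissue, fewer cells of a type and less RNA per cell cannot be told apart.

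**Figure D1:**
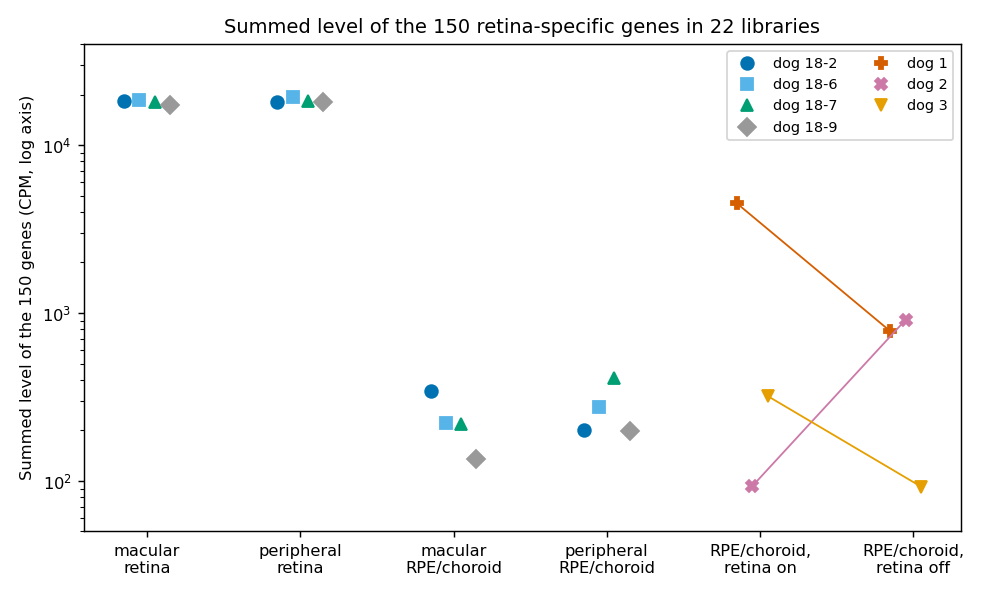
Summed level of the 150 genes in each of the 22 libraries (CPM, log axis), by group, with 1 symbol per dog and lines joining both eyes of dogs 1, 2 and 3. The 8 retina libraries lie between 17333 and 19348 CPM, the first RPE/choroid libraries between 134 and 409 CPM, and the retina-on and retina-off libraries spread from 92.5 to 4492 CPM.

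ENSCAFG00000006995 had the highest level in retina of the 150 genes and ranked 6 among all genes there. Its retina values by dog (18-2, 18-6, 18-7, 18-9) were 745, 883, 759 and 768 CPM for macular samples, and 859, 943, 830.4 and 816 CPM for peripheral ones. Dog 18-6 was highest in both regions, and the peripheral value was the higher one in each dog. The gene was among those that differed between dogs in the test described further on (edgeR adjusted p = 0.0476). In RPE/choroid, in the same order, macular samples had 26.4, 20.1, 16.2 and 8.94 CPM and peripheral ones 14.9, 28.2, 24.0 and 4.42 CPM, so that the ranges of the regions overlapped.

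ENSCAFG00000012560 had the largest ratio of retina to RPE/choroid with 0.5 CPM added to both means, as the rule does (179-fold). Without the added value the order differs, since 2 of the 150 had no count in RPE/choroid. Its retina level was 131 ± 7.88 CPM for macular samples and 119.7 ± 5.19 CPM for peripheral ones (SD, n = 4 each), and its lowest retina library had 115 CPM. Only 9 counts fell in the 8 RPE/choroid libraries together, at most 3 in one of them. Over pooled counts it was 643-fold higher in retina (95% exact binomial counting interval 339 to 1408), a fold that describes the gene's selection.

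How these genes behaved in RPE/choroid sampled with the retina on or off was measured in dogs 1, 2 and 3, whose libraries the rule did not use. The direction differed between dogs. With the retina on, dog 1 had 4492 CPM of summed level (95% exact binomial interval 4428 to 4556) and its retina-off eye 779 CPM (754 to 805). Dog 3 had 320.2 CPM (304 to 337) on and 92.5 CPM (85.9 to 99.5) off. Dog 2 went the other way, with 93.0 CPM (84.0 to 103) on and 909.5 CPM (879 to 941) off. Whether the labels of the eyes of dog 2 are in order was not tested, and each value of dog 2, and each result with or without that dog, rests on them as given. The intervals cover counting error only. The retina-on level was thus 5.76-fold and 3.46-fold the retina-off level in dogs 1 and 3, and in dog 2 the retina-off level was 9.78-fold the retina-on level. Over the 3 dogs the mean log2 difference was 0.34 ± 3.17 (SD, n = 3), far smaller than its spread. Depths were 4265684 and 4606622 counts (on and off) in dog 1, 4138407 and 3592007 in dog 2, and 4368948 and 7845325 in dog 3.

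Set against the mean summed level in retina, the dog 1 retina-on library held 24.6% of it. The retina-off libraries held 4.27% in dog 1, 4.98% in dog 2 and 0.507% in dog 3. The retina-on libraries of dogs 2 and 3 held 0.510% and 1.75%. For comparison, the RPE/choroid libraries of the other 4 dogs ran from 0.736% to 2.24%. Hence 3 of the 6 libraries exceeded that range, of which 2 were labelled retina off, and 2 lay under it, of which 1 was labelled retina on. In the dog 1 retina-on library, 148 of the 150 genes were still below their lowest retina library, and in the other 5 libraries all 150 were.

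Gene by gene the pattern was shared. Among genes with at least 10 counts in one of a dog's libraries, 84 of 87 were higher with the retina on in dog 1 (median log2 difference 1.94), 61 of 64 were lower in dog 2 (-3.08) and 31 of 38 were higher in dog 3 (2.03). Of all genes with that many counts, 45.2% were higher with the retina on in dog 1, 42.2% were lower in dog 2 and 43.6% were higher in dog 3, with medians of -0.03, 0.07 and -0.10. A gene can pass this limit through its higher library alone. Without the limit, 117 of the 150 were higher with the retina on in dog 1 and 21 lower. In dog 2, 19 were higher and 97 lower, and in dog 3, 88 were higher and 34 lower. Of the 100 genes with at least 10 counts over the 6 libraries, 69 were higher with the retina on in dogs 1 and 3 and lower in dog 2, a pattern found in 19.9% of all 17022 such genes. In 85 of the 100, the highest of the 6 values was that of the dog 1 retina-on library, as in 13.2% of all genes. The limit of 10 counts over the 6 libraries can also be passed through 1 high library. The dog 1 retina-on library held 19160 counts of the 150 genes, more than any other of the 6. The 69 and the 85 of 100 therefore follow in part from the limit. Only 5 of the 100 were higher with the retina on in all 3 dogs, beside 6.9% of all genes, and 3 were lower in all 3, beside 7.75%. In 0 of the 100 did the 3 retina-on libraries lie above the 3 retina-off libraries (1.35% of all genes), and in 2 they lay below (1.78%).

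**Figure D2:**
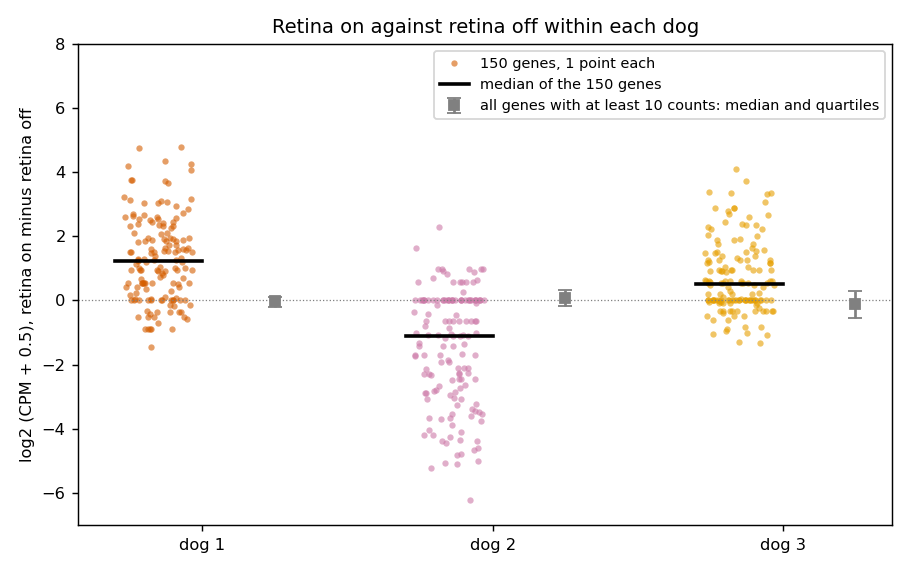
Log2 difference in CPM (0.5 added) between the retina-on and the retina-off library of each dog. Coloured points are the 150 genes, black bars their medians (1.24, -1.10 and 0.51), and grey squares with bars the median and quartiles of all genes with at least 10 counts. The 150 genes lie mostly above 0 in dogs 1 and 3 and mostly below it in dog 2.

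Tested across all genes with the dog as a block (edgeR quasi-likelihood test, n = 3 dogs), 0 of 14076 genes passed an adjusted p of 0.05, a background of 0%, and 0 of the 60 tested among the 150 did. The other 90 had too few counts for the test. At an unadjusted p under 0.05 there were 84 genes (0.597%), 0 of them among the 60, and DESeq2 also called 0 genes at an adjusted p of 0.05, with 71 of all genes and 1 of the 150 at an unadjusted p under 0.05. The fitted log2 fold changes of the 60 had a median of 0.69, beside 0.00144 over all genes tested. Leaving out dog 2 changed this outcome. In the fit of dogs 1 and 3 alone, 80 of 14312 genes were higher with the retina on at an adjusted p of 0.05 (0.559%) and 3 were lower (0.021%). Of the 66 then tested among the 150, 25 were higher and 0 lower, and the median log2 fold change was 2.16. That fit rests on 2 dogs. Without dog 1 the median turned to -0.64, and without dog 3 it was 0.13, with 0 genes called in either case.

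ENSCAFG00000008588 had the highest mean level of the 150 over these 6 libraries and the second highest in retina. In retina its macular level was 612 ± 57.6 CPM and its peripheral level 678 ± 45.9 CPM, and in RPE/choroid of the same dogs these were 13.1 ± 5.81 and 15.2 ± 9.29 CPM (SD, n = 4 each). With the retina on and off it had 379.5 and 57.5 CPM in dog 1, 2.66 and 64.3 CPM in dog 2, and 45.8 and 8.03 CPM in dog 3. The 3 retina-on and 3 retina-off values overlapped, with both the highest and the lowest value among the retina-on libraries. Its log2 fold change was 1.10 ± 1.60 (SE, edgeR adjusted p = 0.99987, higher with the retina on in 2 of 3 dogs), and 2.66 ± 0.21 without dog 2 (adjusted p = 4.07e-05, beside at least 0.99971 under each other alternative), -0.82 without dog 1 and -0.32 without dog 3.

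ENSCAFG00000006995 showed the same order. It had 299.8 and 34.3 CPM (on and off) in dog 1, 0.725 and 26.2 CPM in dog 2, and 14.6 and 0.637 CPM in dog 3, where the lowest values stand for 3 counts in dog 2 and 5 counts in dog 3. Its log2 fold change was 1.72 ± 1.82 (SE, edgeR adjusted p = 0.99987, higher with the retina on in 2 of 3 dogs), 3.44 ± 0.29 without dog 2 (adjusted p = 4.27e-05, beside at least 0.99971 under each other alternative), -0.18 without dog 1 and 0.22 without dog 3.

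The 150 genes did not share 1 common fraction of their retina level. In the dog 1 retina-on library, 19 genes had no count, 39 stood above 0 and under 2% of their mean retina level, 24 between 2% and 10%, 19 between 10% and 20%, 31 between 20% and 40%, and 18 at 40% or more. At the summed share of 24.6%, each of the 150 would have had at least 10 counts. Set against that share, 53 lay within 2-fold of it, 12 at 2-fold or more above and 85 at 2-fold or more below. A limit of 10%, set after the values were seen, divides them into an upper range of 68 genes and a lower range of 82, with 5 genes between 8% and 12%. These are ranges of a continuous measure and not classes of genes.

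The order of the genes recurred in some libraries of other dogs. In the retina-off library of dog 2, the 68 genes of the upper range had a median of 6.97% of their retina level (quartiles 3.90% and 10.8%) and the 82 of the lower range a median of 0% (quartiles 0% and 1.17%). In the retina-on library of dog 3 the medians were 2.09% and 0%. In the retina-off library of dog 1 they were 5.74% and 0.339%. Of the 68 genes with the largest share in the dog 2 retina-off library, 59 (86.8%) were those of the upper range in dog 1, a range that holds 45.3% of the 150. In the dog 3 retina-on library it was 54 (79.4%), and in peripheral RPE/choroid of dog 18-7, a library the rule used, 53 (77.9%). Across the 150 genes, which share the libraries and the retina level used as the denominator, shares in the dog 1 retina-on library had a Spearman correlation of 0.80 with those in the dog 2 retina-off library and of 0.77 with those in the dog 3 retina-on library. In the 2 of these 6 libraries with the least summed level the ranges were closer. Medians were 0.300% and 0% in the dog 2 retina-on library, and 0.288% and 0.1099% in the dog 3 retina-off library, with correlations of 0.28 and 0.25. Among the RPE/choroid libraries of the rule's dogs, the peripheral one of dog 18-7 had the highest such correlation (0.76). The others ran from 0.13 (periphery, dog 18-9) to 0.60 (periphery, dog 18-2).

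**Figure D3:**
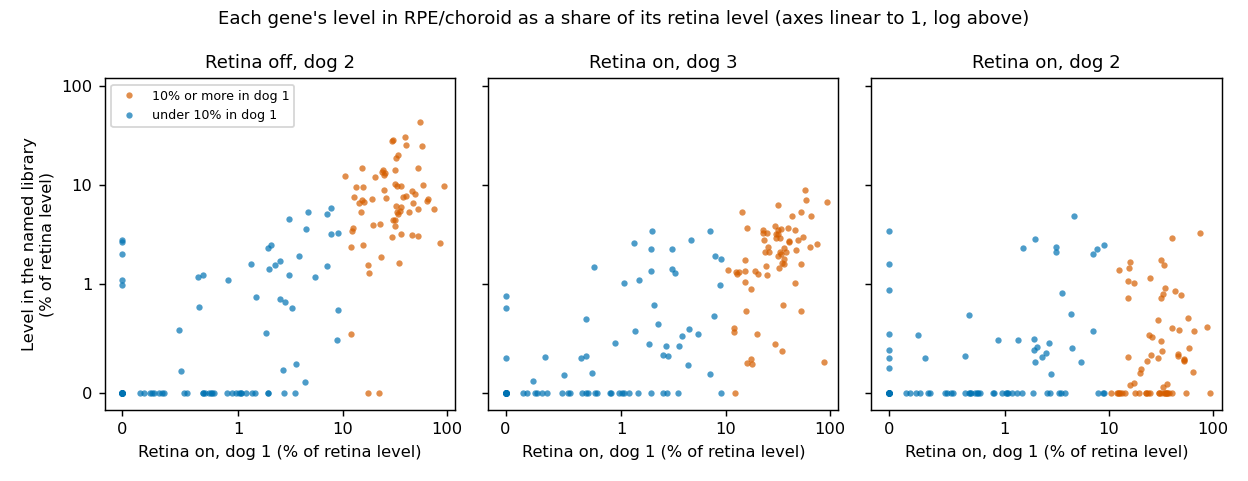
Level of each of the 150 genes as a percentage of its mean retina level, in the dog 1 retina-on library (horizontal) and in 3 libraries of dogs 2 and 3 (vertical). Axes are linear up to 1 and logarithmic above, and colours mark genes at or above 10% and under 10% in the dog 1 library. Genes of the upper range are also the higher ones in the retina-off library of dog 2 and the retina-on library of dog 3, and overlap with the others in the retina-on library of dog 2.

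The lower range had lower retina levels, with a median of 65.3 CPM beside 121 CPM in the upper range, so counting limits weigh more on it. Of the 61 genes at 100 CPM or more in retina, 38 were in the upper range and 23 in the lower. In the dog 1 retina-on library, which set the ranges, their median counts were 322 and 16. In the dog 2 retina-off library the medians of these 38 and 23 genes were 5.86% and 0.212% of their retina level, and in the dog 3 retina-on library 1.99% and 0.256%. ENSCAFG00000012560, named above for its ratio, belonged to the lower range, with 4 counts and 0.747% of its retina level in the dog 1 retina-on library, 1 count in the dog 3 retina-on library and no count in the other 4. ENSCAFG00000006995 stood at 36.3% and ENSCAFG00000008588 at 58.8% in the dog 1 retina-on library. Retina levels at the top of the range lay close together. How this bears on the shares of the highest genes was not tested.

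In the 4 dogs of the rule the same ranges differed less evenly. In peripheral RPE/choroid of dog 18-7, the upper range held 3.02% of its own summed retina level and the lower range 0.862%. In macular RPE/choroid of dog 18-2 these were 2.46% and 0.863%. In peripheral RPE/choroid of dog 18-9 the order of the sums turned, with 0.728% and 1.70%. The medians of single genes did not turn there, with 0.533% in the upper range and 0.429% in the lower. A single gene held 39.2 of the 112 CPM of the lower range in that library. In retina itself, where the rule limited regional differences, the upper range had median log2 differences of macula minus periphery of -0.07, -0.05, -0.05 and -0.11 in dogs 18-2, 18-6, 18-7 and 18-9, and the lower range 0.16, -0.00050, 0.01 and 0.08.

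The 144 genes at or above the same ratio limit that the regional condition removed were followed in the same libraries. They were not matched to the 150 genes by ratio or level. In retina they summed to 12653 ± 327 CPM in macular samples and to 10358 ± 693 CPM in peripheral ones (SD, n = 4 each). In the dog 1 retina-on library they held 6.89% of their mean retina level, where the 150 genes held 24.6%, and 17 of them (11.8%) reached 10% of their own retina level, beside 68 (45.3%) of the 150. In the retina-off libraries of dogs 1 and 2 and the retina-on library of dog 3 their share was also the lower one, with 2.16%, 1.91% and 0.947%. In the retina-on library of dog 2 and the retina-off library of dog 3 it was the higher one, with 0.825% and 0.884% beside 0.510% and 0.507%. Between eyes, their summed level was 793 and 249 CPM (on and off) in dog 1, 95.0 and 220 CPM in dog 2, and 109 and 102 CPM in dog 3. In dog 3, among the 26 of them with at least 10 counts in a library, 13 were higher with the retina on and 13 lower (median log2 difference -0.03). Whether the lists differ was not tested.

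Levels of the 150 genes in retina were also compared between the 4 dogs. The rule used these 8 libraries and limited the regional differences within dogs, whose spread is the error of this test, but used no difference in level between dogs. The test asked whether any dog differed, with the region as a covariate (edgeR quasi-likelihood F test, n = 4 dogs with 2 libraries each). Both libraries of a dog come from 1 eye, so that dog, eye and collection cannot be told apart. At an adjusted p of 0.05, 40 of the 150 genes differed (26.7%), where 10.7% of all 14392 genes tested did, and 11.2% of the 10637 genes at or above the lowest retina level of the 150. Of the 8441 genes at that level that also met the regional condition, 10% did. None of these sets was matched to the 150 by ratio of retina to RPE/choroid. Whether the larger share is particular to the 150 or holds for other retina-specific genes was not tested. These counts depended on which dogs were included. They were 85 of the 150 without dog 18-2 (29.1% of all genes), 11 without dog 18-6 (3.39%), 14 without dog 18-7 (3.77%) and 18 without dog 18-9 (4.19%), and 16 with DESeq2 (3.49%). Most differences were small. The highest dog mean was a median of 1.44-fold the lowest among the 40 genes and 1.24-fold among the other 110, and 7 of the 150 differed at least 2-fold. These folds were not computed for other genes, so they have no background. Both libraries of one dog lay above or below all libraries of the other dogs in 72 of the 150 (48%), close to the 47.3% of the 8441 genes that met the regional condition.

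Dog 18-6 stood at the top most often, with the highest mean for 21 of the 40 genes and for 60 of the 150 (40%). It was also the dog most often highest over the 8441 genes that met the regional condition (31.1%), and over the 848 of them that were called (38.2%). Among the 40 called here its share was 52.5%. Its summed level was 18965 CPM, beside 17656 to 18216 CPM in the others. Its retina libraries were also the shallowest, with 4855463 and 4664101 counts. The part of depth in this was not tested. Dog 18-9 had the highest mean for 1 of the 40 (2.5%), beside 17.6% of those 848 genes. It had the lowest mean for 12 of the 40, and dog 18-2 for 15. Shares of the lowest dog were not computed for other genes, so these 2 counts have no background. Of the upper range 23 of 68 genes (33.8%) were among the 40, and of the lower range 17 of 82 (20.7%).

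ENSCAFG00000010039 had the smallest p for a difference between dogs. Its retina levels in macula and periphery were 61.6 and 71.0 CPM in dog 18-2, 7.83 and 7.93 CPM in dog 18-6, 35.1 and 26.4 CPM in dog 18-7, and 53.2 and 54.8 CPM in dog 18-9. Both libraries of dog 18-6 lay below those of the other dogs and the pairs of values of the 4 dogs did not overlap. The highest dog mean was 8.41-fold the lowest (edgeR adjusted p = 4.64e-04, and from 2.16e-27 to 0.0152 over the alternatives). Its RPE/choroid counts were 7 in the 8 libraries of the same dogs and 2 in the 6 libraries of dogs 1, 2 and 3, both of the latter in the dog 1 retina-on library. The gene second by p ran the other way, with 42.4 and 59.2 CPM in dog 18-6 and 10.8 and 7.13 CPM in dog 18-2, 26.7 and 38.4 CPM in dog 18-7 and 9.81 and 11.3 CPM in dog 18-9 (5.68-fold between highest and lowest dog mean, edgeR adjusted p = 0.00262).

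**Figure D4:**
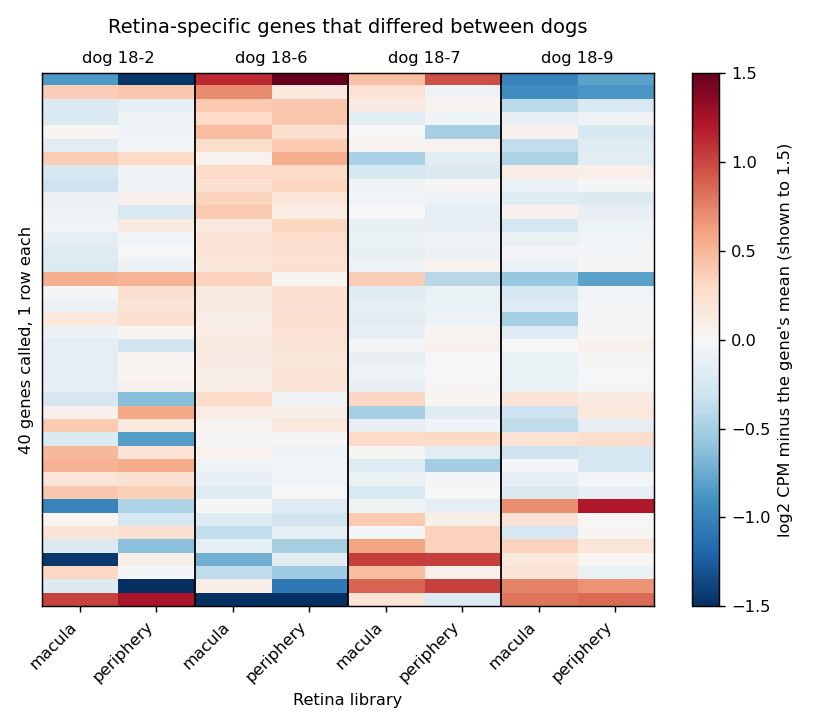
Retina levels of the 40 genes that differed between dogs, as log2 CPM minus the mean of the gene (colour, shown to 1.5 in each direction), 1 row per gene and 1 column per library, ordered by the level in dog 18-6. Macula and periphery of a dog mostly share their colour, and more rows are high in dog 18-6 than in any other dog.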

How the data were processed

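The deposited files held the authors' raw read counts per Ensembl identifier, 1 file per library. Tools named per the submitters' processing notes were featureCounts 2.0.0, HISAT2 2.1.0, Trimmomatic 0.39 and FastQC 0.11.8, with SAMtools. The build, the annotation, the strand setting and the handling of duplicates were not given in the sources used here, so counts of overlapping, antisense or near-identical genes are uncertain. Per the labels' protocols, libraries were directional and made from column-purified total RNA.

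CPM is the count divided by the file's total. Counts were tested with edgeR 4.0.16 in R 4.3.3 (TMM, filterByExpr, Benjamini-Hochberg over all genes tested). Standard errors came from the fold change and F. DESeq2 1.42.0, RLE normalization, no low-count filter, no replicate block and each dog left out in turn were alternatives. Both eyes of dogs 1, 2 and 3 are paired by animal, per the labels. Deviations from group means correlated at 0.66, -0.09 and 0.50 between the eyes of dogs 1, 2 and 3, and at -0.61 to 0.35 between eyes of different dogs. The value of dog 2 lay within the range of different dogs. Deviations cancel out within each group, so same-dog and different-dog values depend on each other and do not test the pairing. Libraries of a group differed beyond sampling noise in every pair (chi-square per degree of freedom of at least 3.61).

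The genes and lists were chosen with earlier results of these data known. The named identifiers are the 4 that stand first by retina level, by ratio, by level in dogs 1 to 3 and by p between dogs. Planned lists of cell type markers and pathways needed gene symbols and were not used.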

Additional observations from a re-analysis of the deposited data

Results flagged for a closer look

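In groups of 4 libraries, a value was set aside for a closer look when its gap to the nearest other value took up nearly the whole range of the group. Of 24 groups examined, 4 held such a value. The rule flags about 1 in 20 groups of independent, normally distributed values. The groups here share libraries and include genes picked as extremes, so their number was not tested against that rate. ENSCAFG00000006995 had 883 CPM in macular retina of dog 18-6, above the other 3 dogs. ENSCAFG00000008588 had 747 CPM in peripheral retina of dog 18-6, again above the other 3. ENSCAFG00000010039 had 0.289 CPM in macular RPE/choroid of dog 18-7, which is 2 counts, and no count in the other 3 dogs. With such values the gap is the whole range, and a flag is certain. The 144 retina-specific genes dropped for their regional difference summed to 12165 CPM in macular retina of dog 18-9, below the other 3 dogs.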

How the results depend on the processing

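Of 72 recomputed values, 51 were marked as unchanged. Counts had to stay near the main value, and single genes had to keep their direction or side of the threshold. The median and summed log2 differences only had to keep their sign and move by less than the SD between dogs, 3.17. That limit is wide, and the rise of the median from 0.69 to 2.16 without dog 2 passed it as unchanged. For retina on against off, leaving out 1 dog gave 0 to 83 genes called, 0 to 25 of the 150 called, a median log2 fold change of -0.64 to 2.16, and a mean log2 difference of summed levels of -0.75 to 2.16 (-0.38 without dog 3). ENSCAFG00000006995 ran from -0.18 to 3.44 and ENSCAFG00000008588 from -0.82 to 2.66. Without the replicate block, 0 genes were called and the median was 1.19. For differences between dogs in retina, DESeq2 called 16 of the 150 and 568 of all genes, and leaving out 1 dog gave 11 to 85 and 491 to 4196. Without the regional condition, 82 of the 150 were chosen again; under the other alternatives for the choice, 115 to 150 were. With limits of 5% and 20%, set after the data had been seen, the upper range held 76 and 49 genes. The cause of these changes was not tested. In RPE/choroid, 3 counts stand for 0.382 to 1.11 CPM, which limits single genes there.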
